A study of Homo sapiens with 8 samples.

Results

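Transcripts of 8 transcription factors that work in hematopoietic stem and progenitor cells (MECOM, PRDM16, GATA2, LMO2, TAL1, ERG, LYL1 and MYB) were followed in MOLM-13 cells after inhibition of the immunoproteasome. They are 8 of the 38551 genes with values in the count table and were taken by gene symbol. MECOM was chosen by its fold change between the groups in these libraries, much higher with PR-957 from few counts, so its difference between the groups is given as a description, without a test. The other 7 were taken as factors that act beside it.

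MOLM-13 is an established cell line from an acute myeloid leukemia with a rearranged KMT2A gene. The compound PR-957 (ONX-0914) blocks the immunoproteasome through PSMB8, one of the subunits that cut proteins. Cells received 100 nM PR-957 or the diluent DMSO for 72 h, and polyA RNA of 4 libraries per group was sequenced. All libraries come from this 1 line, and the labels do not say whether the replicates were separate cultures, so p-values measure the spread between these libraries only, which may be technical.

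Library totals ran from 16675036 to 23111223 counts. A count of 0 in a library allows a level of up to 3 counts, which was 0.131 to 0.188 CPM by library. CPM are counts relative to library size, with sizes corrected by TMM, the trimmed mean method of edgeR. The share of counts from mitochondrial genes was 2.28 ± 0.340% in DMSO and 4.70 ± 0.449% in PR-957 (SD, n = 4 each), with an exact permutation p of 0.0286, the smallest this design allows, and 0.0571 after adjustment over 4 library measures. Its part in the results was not tested. Several members split replicates 1 and 2 from replicates 3 and 4, and for these the values within each pair of replicates are given beside the whole.

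MECOM encodes EVI1, a zinc finger repressor of blood stem cells, and from a distant start site a longer form with an additional PR domain. Its relative PRDM16 carries the same domain. GATA2 binds GATA letters and maintains stem cells. TAL1 and LYL1 are basic helix-loop-helix factors that bind E-boxes with a partner, and LMO2 bridges them to GATA factors and to LDB1. ERG is an ETS factor, and MYB is an activator on which KMT2A-rearranged leukemias are known to depend.

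Because MECOM had the largest fold of the 6 members that could be fitted, and because it can start at distant sites, the 250 bases before each of its 3 RefSeq start sites are shown first (GRCh38.p14, minus strand). An ERG window follows, since ERG too had more counts in PR-957. It is 1 of 4 ERG windows and was chosen because it holds GATA letters, as does the one that overlaps it, while those before the other two ERG starts hold none. Capitals mark GATA letters on either strand. The letters searched were AGATAA, its variant ending in G instead (AGATAG), and both forms with T as the first base (TGATAA and likewise TGATAG).
MECOM distal start, chr3:169663713-169663962: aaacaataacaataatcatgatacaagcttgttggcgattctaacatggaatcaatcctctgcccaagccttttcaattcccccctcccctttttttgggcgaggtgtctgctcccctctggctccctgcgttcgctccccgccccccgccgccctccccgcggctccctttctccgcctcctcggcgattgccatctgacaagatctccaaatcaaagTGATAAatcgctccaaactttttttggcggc
MECOM middle start, chr3:169147472-169147721: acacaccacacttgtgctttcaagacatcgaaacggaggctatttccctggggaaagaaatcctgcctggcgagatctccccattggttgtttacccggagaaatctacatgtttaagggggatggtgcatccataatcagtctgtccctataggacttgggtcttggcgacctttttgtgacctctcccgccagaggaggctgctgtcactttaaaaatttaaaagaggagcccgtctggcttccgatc
MECOM proximal start, chr3:169146540-169146789: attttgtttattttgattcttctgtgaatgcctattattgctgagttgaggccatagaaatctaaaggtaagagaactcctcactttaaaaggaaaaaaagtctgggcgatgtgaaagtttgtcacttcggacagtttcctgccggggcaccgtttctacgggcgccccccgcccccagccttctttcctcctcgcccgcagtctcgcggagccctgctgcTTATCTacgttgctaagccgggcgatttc
ERG internal start, chr21:38498505-38498754: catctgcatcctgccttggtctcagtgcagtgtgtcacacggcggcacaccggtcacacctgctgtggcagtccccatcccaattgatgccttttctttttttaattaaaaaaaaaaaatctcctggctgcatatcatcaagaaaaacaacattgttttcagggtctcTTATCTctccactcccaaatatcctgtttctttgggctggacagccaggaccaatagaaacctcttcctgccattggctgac

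In the distal MECOM window TGATAA began 31 bases before the start site, and in the proximal window the letters on the other strand began 29 bases before it. The counted span of MECOM reaches chr3:169663781, beyond the distal start used here, so the distal match lies inside that span. The middle window held none. Of 34943 promoter windows of this length in RefSeq, 22.4% held at least 1 such motif, against 6 of the 13 windows found for 6 of the members. A pair of ERG windows overlap and share the same match, so these are 5 separate sites. Of the windows with a match, that of LYL1 lay in exons over all its 250 bases. The TAL1 window held 54 exon bases and 1 of the ERG windows 27. The GATA2 and MYB windows held none. PRDM16 and LMO2 have no entry there. Shares of all windows for the letters of the other factors were 24.2% for the E-boxes CAGATG and CAGCTG (3 of the 13 member windows), 40.7% for the ETS letters AGGAAG and CGGAAG (5 windows), 16.3% for TGTGGT and TGCGGT of RUNX factors (2 windows) and 45.6% for the MYB letters AACTG and AACGG (6 windows). Each was searched on both strands, and none of these motifs contains another. These matches are a description of letters and not of binding. The counts sum over all transcripts of a gene, so they do not tell the MECOM starts apart.

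Per length of exon, the members differed widely in level. In DMSO, MYB stood highest at 103 CPM per kilobase, followed by LMO2 at 46.3, LYL1 at 21.5 and GATA2 at 2.15. These 4 did not overlap with one another in any library. ERG (0.0624), MECOM (0.0407) and TAL1 (0.00765 CPM per kilobase) followed, and the libraries of ERG overlapped with those of MECOM and those of MECOM with those of TAL1. PRDM16 had no count in DMSO. In PR-957 the order of the 4 abundant members was the same, while MECOM (0.434 CPM per kilobase) had a higher mean than ERG (0.151), with overlapping libraries.

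**Figure D1:**
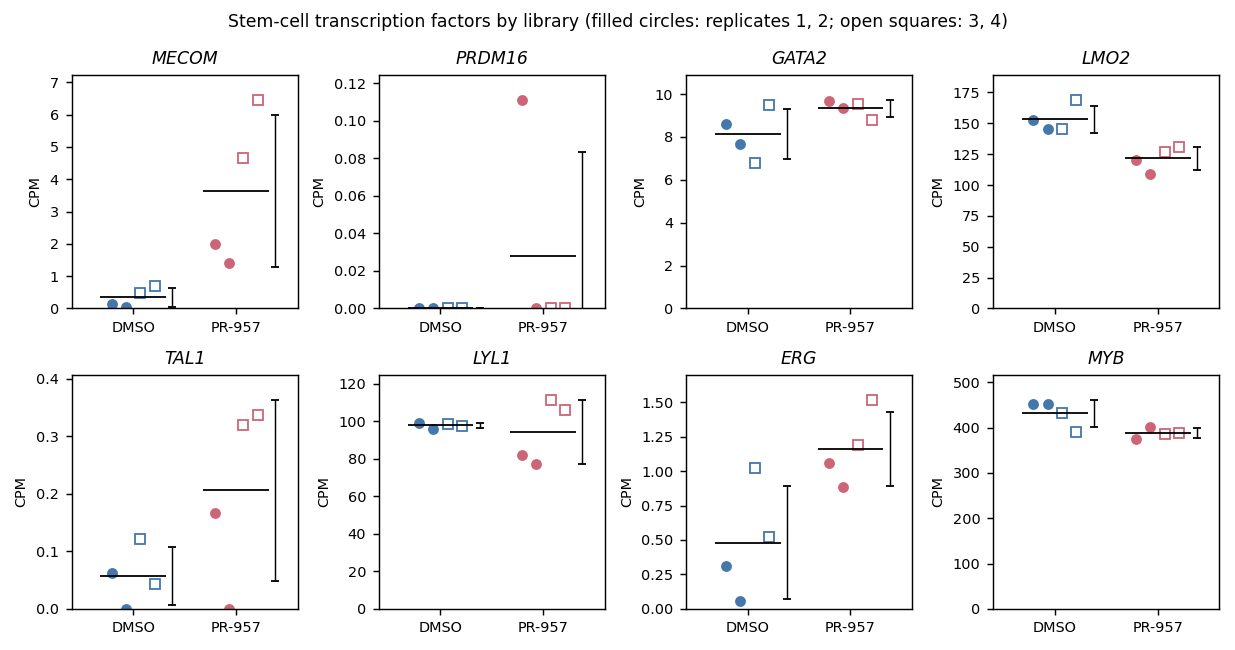
TMM-scaled CPM of the 8 members in each library (y axis, linear, a scale of its own for each gene), by group (x axis); filled circles are replicates 1 and 2, open squares replicates 3 and 4, the horizontal line is the mean and the bar beside it the SD (n = 4). MECOM lies between 1.41 and 6.47 CPM in PR-957 and at or under 0.699 in DMSO, and LMO2 is lower in every PR-957 library than in any DMSO library.

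MECOM transcripts were sparse in DMSO and higher in all 4 PR-957 libraries. The gene spans chr3:169083499-169663781 (hg38, minus strand) and shares no exon base with another gene. DMSO replicates 1 to 4 held 2, 1, 8 and 16 counts, and PR-957 replicates 1 to 4 held 36, 27, 102 and 115. Every PR-957 library was above every DMSO library, both in counts and in CPM. The mean CPM went from 0.341 ± 0.303 (DMSO) to 3.63 ± 2.36 (PR-957; SD, n = 4 each). The fitted log2 fold change was 3.31 (SE 0.73). Summed over each group, 27 counts stood against 280, a depth-corrected ratio of 9.91 with a 95% interval of 6.67 to 15.3 that covers counting error only.

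Within each treatment MECOM was also higher in replicates 3 and 4 than in replicates 1 and 2. The mean CPM of replicates 3 and 4 was 6.53 times that of replicates 1 and 2 in DMSO and 3.26 times in PR-957. Within replicates 1 and 2, MECOM went from 0.0905 to 1.71 CPM (3 counts against 63), and within replicates 3 and 4 from 0.591 to 5.56 CPM (24 against 217). The PR-957 level was thus higher in both pairs, with log2 fold changes of 4.16 and 3.18 when each was fitted alone, the first of which rests on 3 DMSO counts. Leaving out 1 library moved the fold change between 2.89 (without PR-957 replicate 4) and 4.01 (without DMSO replicate 4). MECOM passed the low-count filter, which asked for 0.553 CPM in at least 4 libraries, through the PR-957 group, since 1 DMSO library and 4 PR-957 libraries reached that level.

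PRDM16, the closest relative of MECOM (chr1:3069203-3438621, plus strand), was close to absent. It had 0 counts in all 4 DMSO libraries and in 3 PR-957 libraries, and 2 counts in PR-957 replicate 1. No fold is given, since both groups lie at or under the limit of a count of 0.

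GATA2 transcripts (chr3:128479422-128493201, minus strand) did not differ beyond the spread between libraries. Counts were 137, 138, 112 and 217 in DMSO and 174, 179, 209 and 156 in PR-957. The groups overlapped, because DMSO replicate 4 (9.48 CPM) lay above PR-957 replicates 2 and 4 (9.34 and 8.77). The DMSO mean was 8.13 ± 1.17 CPM and the PR-957 mean 9.34 ± 0.403 CPM (SD, n = 4). The log2 fold change was 0.20, with a 95% interval of -0.04 to 0.44 (edgeR adjusted p = 0.199). The p stayed above the threshold in all 19 alternatives, between 0.0636 and 0.542.

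Of the 4 members with all libraries of both groups at the filter's level (GATA2, LMO2, LYL1 and MYB), LMO2 and MYB passed an adjusted p of 0.05 in edgeR's quasi-likelihood test, both lower. ERG was also under 0.05, higher, but entered the test through its PR-957 libraries alone and is given as a description. Of all 13179 tested genes 46.6% were called, 23.1% higher and 23.5% lower, so the 2 calls of 4 are near the background. With library totals alone as the scaling, 4066 genes were higher and 2353 lower in place of 3045 and 3098, with a shift of the median log2 fold change from 0.003 to 0.08. LMO2 was the 1 member of these 4 whose groups did not overlap, which held for 42.5% of all tested genes.

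**Figure D2:**
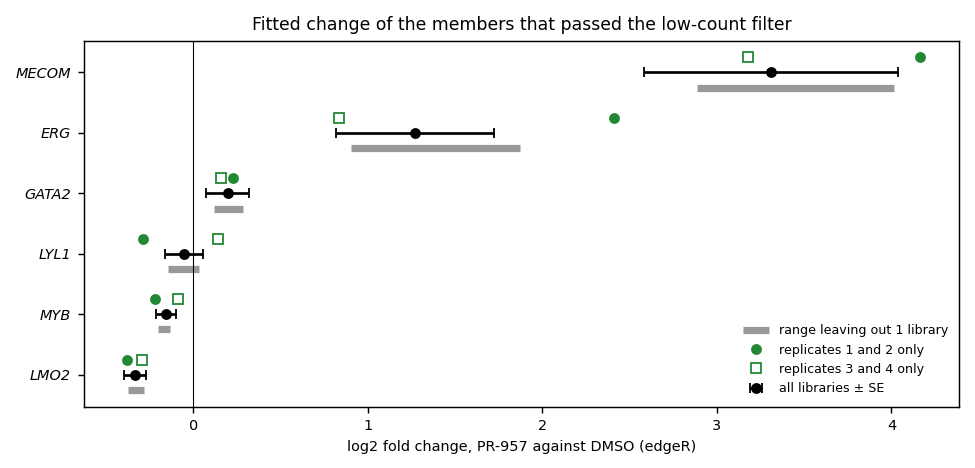
Fitted log2 fold change of PR-957 against DMSO (x axis) for the 6 members that passed the low-count filter, with SE over all 8 libraries (black), within each pair of replicates (green), and the range over fits that left out 1 library (grey). MECOM lies furthest to the right at 3.31, LMO2 stays left of zero throughout, and LYL1 lies on both sides of it.

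LMO2, the bridge of the TAL1 and GATA complex (chr11:33858576-33892076, minus strand), fell. DMSO replicates 1 to 4 were at 153, 145, 145 and 169 CPM and PR-957 replicates 1 to 4 at 120, 109, 126 and 131 CPM. Every PR-957 library was under every DMSO library. The log2 fold change was -0.33 (SE 0.07, edgeR adjusted p = 0.000326), and the call held in all 19 alternatives, between -0.38 and -0.26.

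TAL1 (chr1:47216290-47232389, minus strand) was nearly silent, with 1, 0, 2 and 1 counts in DMSO and 3, 0, 7 and 6 in PR-957. In neither group did a library reach the filter, so it was not tested. The summed counts of 4 and 16 gave a ratio of 3.82, with a counting interval of 1.23 to 15.7. The libraries overlapped, and DMSO and PR-957 replicate 2 both held 0.

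LYL1, the helix-loop-helix factor that was abundant in these cells (chr19:13097166-13103751, minus strand), did not move in one direction. DMSO replicates 1 to 4 were at 99.0, 95.8, 98.7 and 97.6 CPM. PR-957 replicates 1 and 2 were under all of them, at 82.1 and 77.2 CPM, and PR-957 replicates 3 and 4 were above all of them, at 111 and 106 CPM. The log2 fold change over all libraries was -0.05 (95% interval -0.26 to 0.15, edgeR adjusted p = 0.707).

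Fitted within replicates 1 and 2 alone, LYL1 was lower by a log2 fold change of -0.29 (edgeR adjusted p = 0.000923), and within replicates 3 and 4 alone the value was 0.14 (adjusted p = 0.171). The sign also turned without PR-957 replicate 1 (0.00077, adjusted p = 0.996), without PR-957 replicate 2 (0.03, adjusted p = 0.796) and with library totals alone (0.03, adjusted p = 0.874). LYL1 shares 35.8% of its exon bases with NFIX on the opposite strand, a nuclear factor that fell (-0.41, edgeR adjusted p = 0.000109). Counting used strand. In 19 genes with at least 80% of their exon bases inside exons of a gene of 50 CPM or more on the other strand, the median count per base was 0.0166 of the other gene's.

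ERG (chr21:38367261-38661783, minus strand) was low in DMSO and higher on average in PR-957. It passed the filter through the PR-957 group, as MECOM did, with 1 DMSO and 4 PR-957 libraries at the required level, so its p is no support for a change. Counts were 5, 1, 17 and 12 in DMSO and 19, 17, 26 and 27 in PR-957. The groups overlapped, because DMSO replicate 3 (1.03 CPM) lay above PR-957 replicate 2 (0.887 CPM). The DMSO mean was 0.480 ± 0.412 CPM and the PR-957 mean 1.16 ± 0.267 CPM (SD, n = 4). The log2 fold change was 1.27 (SE 0.45, edgeR adjusted p = 0.0283), and the summed counts of 35 and 89 gave a ratio of 2.43 (counting interval 1.63 to 3.70).

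The adjusted p of ERG was 0.00453 in the fit with no filter on low counts. It was above 0.05 in edgeR fits without DMSO replicate 1 (adjusted p = 0.0765), DMSO replicate 2 (0.0698), PR-957 replicate 1 (0.0509), PR-957 replicate 3 (0.0620) or PR-957 replicate 4 (0.0791). Fitted in each pair of replicates alone, ERG had a log2 fold change of 2.41 in replicates 1 and 2 and of 0.83 in replicates 3 and 4 (adjusted p = 0.157). It was under 0.05 in 12 of the 18 alternatives in which ERG could be fitted.

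MYB (chr6:135181308-135219172, plus strand), the most abundant member, fell by a small amount. DMSO replicates 1 to 4 were at 452, 453, 433 and 390 CPM and PR-957 replicates 1 to 4 at 374, 402, 386 and 389 CPM. DMSO replicate 4 lay within the PR-957 range and the other 3 DMSO libraries above it. The log2 fold change was -0.16 (SE 0.06, edgeR adjusted p = 0.0318). The call was lost in edgeR fits without DMSO replicate 1 (adjusted p = 0.0943), DMSO replicate 2 (0.0986), DMSO replicate 3 (0.0629), PR-957 replicate 1 (0.0593) or PR-957 replicate 3 (0.0791), and with library totals alone (-0.08, adjusted p = 0.245).

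The genes that work with these factors were followed as lists, of which 87 distinct genes were searched and 57 could be tested. Among partners of LMO2 and TAL1, 6 of 13 tested genes fell, 1 rose and 6 did not pass, with a median log2 fold change of -0.10 against 0.003 over all tested genes. These 7 calls of 13 stand beside 46.6% over all tested genes, and with library totals alone 3 were higher and 5 lower. SSBP2, which stabilizes LDB1 complexes, fell from 15.9 ± 1.46 to 6.78 ± 0.719 CPM (log2 fold change -1.23, edgeR adjusted p = 4.15e-08). TCF12, an E-protein partner of TAL1 and LYL1, fell from 104 ± 6.49 to 71.5 ± 4.77 CPM (-0.54, adjusted p = 1.02e-06). Chosen after their values were seen, FLI1, the ETS relative of ERG (-0.32, adjusted p = 6.51e-05), and RUNX1, a DNA-binding stem cell factor (-0.23, adjusted p = 0.00228), also fell. The rise was that of TCF4, another E-protein, from 5.65 ± 0.556 to 9.73 ± 2.22 CPM (0.78, adjusted p = 0.000336), which was not called within replicates 1 and 2 alone (0.41, adjusted p = 0.0551).

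Of the other GATA factors and their FOG cofactors, 2 of 7 could be tested. GATA6, a factor best known from endoderm and heart, went from 22, 33, 33 and 40 counts in DMSO to 9, 11, 14 and 5 in PR-957. These are 1.74 ± 0.261 and 0.499 ± 0.156 CPM (log2 fold change -1.77, SE 0.30, edgeR adjusted p = 8.69e-05), and the groups did not overlap. GATA6 passed the filter through the DMSO group, where 4 libraries reached its level against 2 in PR-957, so this p is no support. The other, ZFPM1, did not pass. GATA4, GATA5 and ZFPM2 had no count in any library, and GATA1, the erythroid partner of TAL1, had at most 10 counts in a library.

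Corepressors that bind EVI1 or PRDM16 gave calls whose direction depended on the scaling. Of 9 tested genes 1 rose, 2 fell and 6 did not pass, beside 46.6% called over all tested genes. Their median log2 fold change was -0.04. With library totals alone 3 were higher and none lower, with a median of 0.04. SUV39H1, a histone methyltransferase, rose (0.34, edgeR adjusted p = 0.000234). HDAC2, a histone deacetylase, fell (-0.17, adjusted p = 0.00953), a call lost with library totals alone (-0.09, adjusted p = 0.103) and within replicates 3 and 4 (-0.16, adjusted p = 0.101). DNMT3B, a DNA methyltransferase, fell (-0.26, adjusted p = 0.0262), a call that held in 12 of 19 alternatives. It was lost with library totals alone (-0.19, adjusted p = 0.120), within replicates 1 and 2 (-0.17, adjusted p = 0.194) and within replicates 3 and 4 (-0.36, adjusted p = 0.0566). It was also lost without DMSO replicate 2 (0.0653), DMSO replicate 4 (0.0775), PR-957 replicate 3 (0.110) or PR-957 replicate 4 (0.0526).

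Among other genes of the PRDM family, to which MECOM and PRDM16 belong, 2 of 9 tested genes rose, 2 fell and 5 did not pass. These calls stand beside 46.6% over all tested genes. PRDM10 (0.58, edgeR adjusted p = 5.66e-05) and PRDM15 (0.38, adjusted p = 0.00143) rose, while PRDM13 (-0.79, adjusted p = 0.000437) and PRDM8 (-0.49, adjusted p = 0.000355) fell. PRDM15 was not called within replicates 3 and 4 alone (0.33, adjusted p = 0.0664). Of the 5 genes of the MYB family and its coactivators, 2 rose and 3 did not pass, also beside 46.6% called. MYBL2, a cell cycle relative of MYB, rose from 120 ± 8.96 to 167 ± 3.05 CPM (0.47, adjusted p = 1.91e-06), as did MYBL1 (0.44, adjusted p = 0.0336). The call of MYBL1 was lost without DMSO replicate 3 (0.0742), DMSO replicate 4 (0.0845), PR-957 replicate 3 (0.122) or PR-957 replicate 4 (0.0676), and within replicates 1 and 2 (0.11, adjusted p = 0.690).

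Of the 5 tested genes given here that have been tied to EVI1 in leukemia, 2 rose and 3 did not pass, with a median of 0.11. The share called over all tested genes was 46.6%. ITGA6 (0.11), CD52 (-0.35) and CEBPA (-0.02) were those that did not pass. CD52 had 24, 33, 49 and 172 counts in DMSO and 70, 42, 53 and 48 in PR-957, so its sign leaned on DMSO replicate 4. Its log2 fold change ran from -1.07 to 0.85 over 19 alternatives, and it was called in 1 of them. Both that rose are also among the granulocyte and precursor markers. CEBPE, a factor of granulocyte maturation, rose from 4.28 to 12.8 CPM (log2 fold change 1.58, edgeR adjusted p = 1.63e-06), and MS4A3, a marker of granulocyte and monocyte precursors, from 6.78 to 18.1 CPM (1.41, adjusted p = 7.67e-08). MS4A3 is also annotated on an alternate sequence of hg38.

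**Figure D3:**
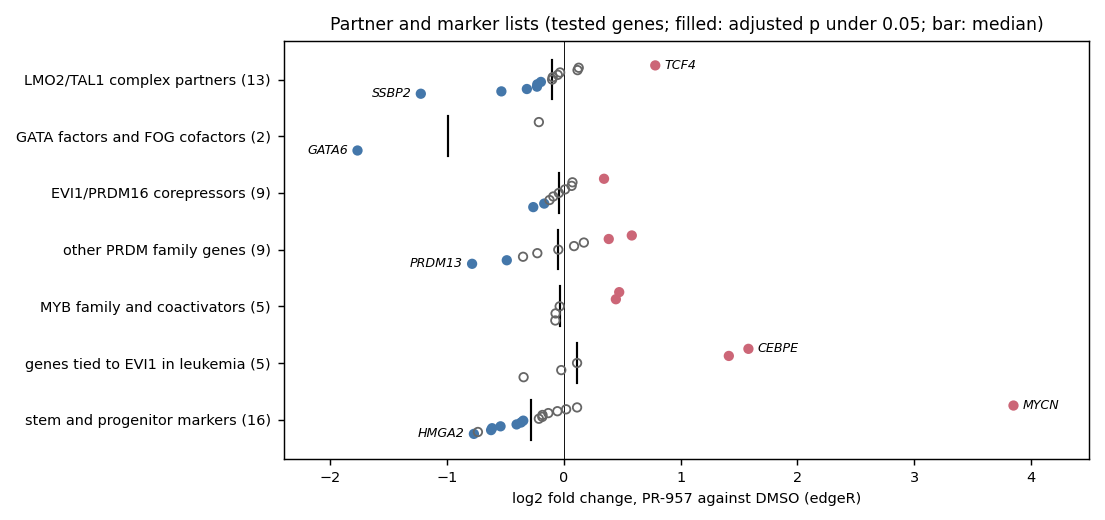
Log2 fold change of PR-957 against DMSO (x axis) for the tested genes of 7 lists (rows, number tested in brackets); filled points passed an adjusted p of 0.05 (red higher, blue lower), open points did not, and the vertical bar is the list's median. The median of the stem and progenitor markers lies at -0.28, while MYCN stands far to the right of all other genes at 3.85.

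Of 33 stem and progenitor markers 16 could be tested, and 14 of these had all libraries of both groups at the filter's level. Of the 14, 7 fell and none rose, with a median log2 fold change of -0.28, where 23.5% of all tested genes fell. HMGA2, a chromatin factor of fetal stem cells, fell from 18.2 to 10.7 CPM (-0.77, edgeR adjusted p = 3.17e-05), and BCL11A, a zinc finger repressor, from 73.8 to 47.8 CPM (-0.62, adjusted p = 1.56e-07). CD34, the marker of stem and progenitor cells, had 0, 0, 0 and 2 counts in DMSO and 2, 3, 1 and 1 in PR-957, and AVP and EMCN had none.

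MYCN, a MYC family factor, is on the same list and passed the filter through the PR-957 group, since no DMSO library reached the filter's level, so its p is no support for a change. It had 0, 0, 4 and 4 counts in DMSO and 15, 16, 51 and 46 in PR-957, which is 0.104 ± 0.123 and 1.65 ± 0.943 CPM (log2 fold change 3.85, SE 0.66, edgeR adjusted p = 0.000283). Like MECOM, it was higher in replicates 3 and 4 of the PR-957 group. In DMSO its replicates 3 and 4 lay at 0.241 and 0.175 CPM. The 0 counts of DMSO replicates 1 and 2 allow up to 0.188 and 0.167 CPM, so a split within DMSO is not shown.

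Some markers of monocytes and of granulocytes and their precursors rose in the same libraries. Of 6 monocyte markers at the filter's level in all libraries 4 rose and none fell, beside 23.1% higher over all tested genes, and the summed level of the 13 listed lay between 188 and 217 CPM over the DMSO libraries and between 770 and 1021 CPM over the PR-957 libraries. LYZ, the lysozyme gene, made up most of this sum and rose (log2 fold change 2.42, edgeR adjusted p = 7.92e-10). It lay at 136 to 175 CPM over the DMSO libraries and at 689 to 941 CPM over the PR-957 libraries. ITGAM did not pass (0.22, adjusted p = 0.394) and was called in 2 of 19 alternatives. It lay at 21.4, 19.8, 20.5 and 36.0 CPM in DMSO replicates 1 to 4. In PR-957 it lay at 27.3 to 29.6 CPM, so DMSO replicate 4 alone stood above that range. CD14 had 12 counts or fewer in each library and was not tested. Its summed counts were 9 in DMSO and 21 in PR-957, and those of CD163, also not tested, were 28 and 8. Of 5 granulocyte and precursor markers at the filter's level in all libraries 4 rose, again beside 23.1% higher over all tested genes. The sum of the 9 listed lay between 860 and 1092 CPM in DMSO and between 1514 and 1595 CPM after PR-957. LTF and CAMP, on the same list, had 5 counts or fewer in each library and were not tested. The most abundant were MPO (1.53, adjusted p = 1.26e-12) and CTSG (0.40, adjusted p = 0.000143), both granule enzymes. The part of these markers in the values of the 8 factors was not tested, and in bulk RNA fewer cells of a type and less RNA per cell cannot be told apart.

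Of the 5 genes that describe MOLM-13 itself, 4 fell, beside 23.5% lower over all tested genes. Among the 4 were FLT3 (-0.98, edgeR adjusted p = 1.10e-09) and PTPRC (-0.66, adjusted p = 1.43e-06). The sum of the 5 lay between 634 and 706 CPM in DMSO and between 372 and 430 CPM after PR-957. Of 8 erythroid markers, EPOR rose (1.13, adjusted p = 0.0397). KLF1 (1.94, adjusted p = 0.000335) passed the filter through its PR-957 libraries alone, with 0 DMSO libraries at that level. The 8 together had summed levels of 14.9 to 20.8 CPM in DMSO and of 23.4 to 59.6 CPM after PR-957. Most of this sum was EPOR, at 14.65 to 20.23 CPM over the DMSO libraries, so the sum followed this gene more than the list. EPOR lay at 25.74, 21.98, 47.07 and 57.48 CPM in PR-957 replicates 1 to 4. The call of EPOR was lost in 6 of the 8 fits that left out 1 library (each DMSO library and PR-957 replicates 3 and 4), with edgeR adjusted p of 0.0653 to 0.0970. It was also lost in limma-voom (adjusted p = 0.0742) and in edgeR with no filter on low counts (0.0693). None of 2 tested megakaryocyte markers (GP9 and ITGA2B) or 2 lymphoid markers (PAX5 and CD79A) passed, and 1 of 2 endothelial markers did (EGFL7, 0.49, adjusted p = 0.000320, with SOX18 not passing). GP1BA, PF4 and PPBP, KDR, CLDN5 and ROBO4, and CD3E had no count in any library.

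The genes beside MECOM changed less than it did. MECOM was chosen by its fold change and these genes were not, so this contrast is a description and no result about the locus. Within 1 Mb of its ends lie 27 genes, of which 17 had a count and 8 could be tested. Their log2 fold changes ran from -0.29 to 0.23. SEC62, a translocation factor, rose (0.23, edgeR adjusted p = 0.00296), GPR160, an orphan receptor, fell (-0.29, adjusted p = 0.00813) and PHC3, a Polycomb subunit, fell (-0.20, adjusted p = 0.0270), and the other 5 did not pass. These 3 calls of 8 stand beside 46.6% over all tested genes, and the 3 genes were named after their values were seen. PHC3 lost its call without DMSO replicate 2 (adjusted p = 0.0856) or PR-957 replicate 1 (0.0969). It was also lost with library totals alone (0.212) and within replicates 3 and 4 (0.292). SEC62 was not called within replicates 1 and 2 (0.0962). GPR160 was called neither there (0.0937) nor within replicates 3 and 4 (0.0503). The nearest tested gene on one side was MYNN, 110 kb away (-0.08, adjusted p = 0.443), and on the other GOLIM4, 988 kb away (-0.03, adjusted p = 0.726). MECOM-AS1 and LOC105374206, which lie inside MECOM, had 0 counts in all 8 libraries.

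Around GATA2, 25 of 46 genes within 1 Mb could be tested, and 11 rose, 3 fell and 11 did not pass, beside 46.6% called over all tested genes. Of the 22 at the filter's level in all libraries, 10 rose and 2 fell, beside 23.1% higher and 23.5% lower over all tested genes. Log2 fold changes of the 25 ran from -1.65 (RAB43) to 0.97 (KIAA1257), with a median of 0.23. RAB43 entered the test through its DMSO libraries alone, and KIAA1257 had 3 DMSO and 4 PR-957 libraries at the filter's level. GATA2-AS1, the antisense neighbor at the GATA2 promoter, had 63, 85, 64 and 92 counts in DMSO and 95, 81, 110 and 88 in PR-957, with overlapping groups (0.23, edgeR adjusted p = 0.234). SEC61A1, the nearest tested gene on the lower side, rose (0.18, adjusted p = 0.0148). Its call was lost without PR-957 replicate 2 (0.0548) and within replicates 3 and 4 alone (0.109). LOC90246, on the upper side, did not pass (0.43, adjusted p = 0.238).

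**Figure D4:**
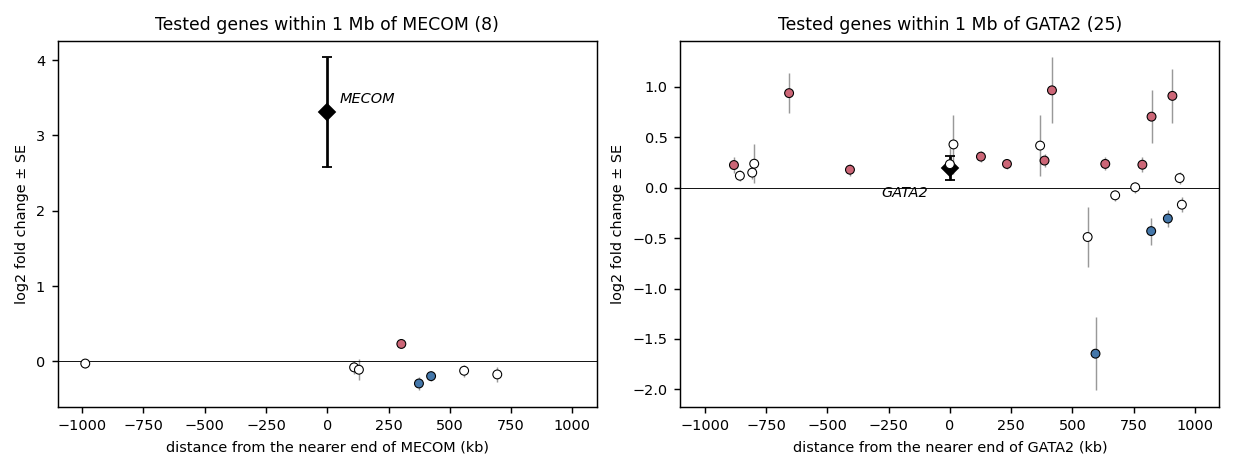
Log2 fold change ± SE of PR-957 against DMSO (y axis, a scale of its own in each panel) for tested genes by their distance from the nearer end of MECOM (left) or GATA2 (right), in kb (x axis); red and blue points passed an adjusted p of 0.05 (higher and lower), white points did not, and the diamond is the factor itself. The 8 tested genes beside MECOM lie between -0.29 and 0.23, and MECOM, which was chosen by its fold change, lies at 3.31.

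The genes whose profile was most like that of MECOM were sought by the root mean square distance of log2(CPM + 0.5), centred on each gene's mean, over the 8 libraries and 13178 other tested genes. The nearest were EMP2 (distance 0.315), BCYRN1 (0.326) and MYCN (0.326). EMP2, a membrane protein, was at 1.13, 1.504, 2.17 and 2.80 CPM in the DMSO libraries and at 5.12, 4.44, 10.6 and 10.7 CPM in the PR-957 libraries. As the nearest profile it was bound to follow MECOM over these libraries. BCYRN1 derives from a repeat with many near copies, so its counts are uncertain.

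For GATA2 the nearest profiles were those of SSH3, a phosphatase acting on cofilin (distance 0.0585), ADAMTSL4, an extracellular matrix protein (0.0615), and SLC4A2, an anion exchanger (0.0683). SSH3 did not pass the test (log2 fold change 0.14, edgeR adjusted p = 0.0982). ADAMTSL4 (0.19, adjusted p = 0.0445) and SLC4A2 (0.23, adjusted p = 0.00474) rose slightly, the first of these a call that held in 11 of 19 alternatives. Its call was lost in the edgeR fits without DMSO replicates 1, 2 or 3 or PR-957 replicates 1, 2 or 3, each left out alone, with adjusted p of 0.0893 to 0.147.

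**Figure D5:**
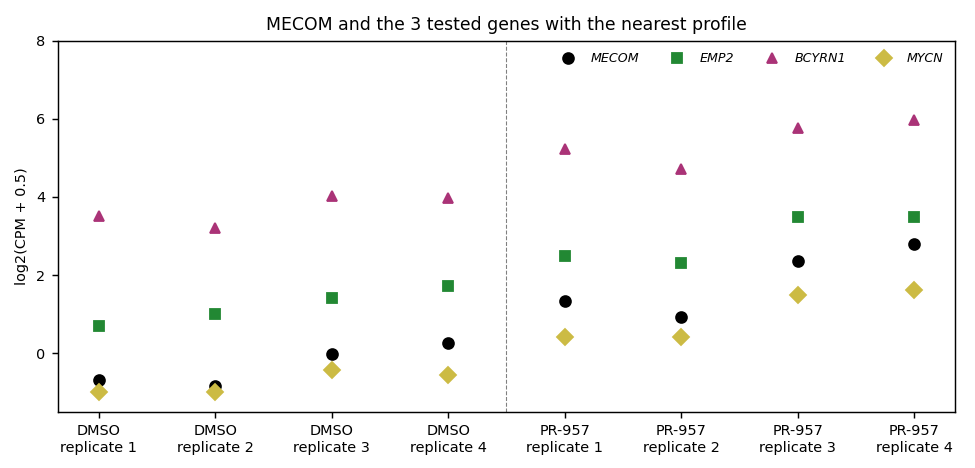
log2(CPM + 0.5) (y axis) in each of the 8 libraries (x axis) for MECOM and the 3 tested genes with the nearest centred profile. All 4 genes are higher in the PR-957 libraries than in the DMSO libraries and, within each group, in replicates 3 and 4 than in replicates 1 and 2. The DMSO points of MYCN rest on 0 or 4 counts, too few to show that split.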

How the data were processed

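Per the file headers, the authors counted fragments with featureCounts 2.0.1, with both ends mapped and on the reverse strand, against RefSeq models of hg38, and deposited raw counts without normalization. The submitters' processing notes also name Trimmomatic 0.39, STAR 2.7.10a and DESeq2. The header names 16 libraries, of which 8 are in the table and the others were not analysed here. A deposited table of the authors' own comparison, with fold changes and p-values, was not used. Rows of 6 genes were empty and were dropped. RNA was polyA-selected and libraries were made with a TruSeq kit, and multi-copy genes can lose reads in such counting.

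PR-957 was compared with DMSO over all 8 libraries with edgeR 4.0.16 under R 4.3.3 (quasi-likelihood test, robust, two-sided, no covariate, TMM scaling). The filter filterByExpr kept 13179 genes with 99.9% of the counts, over all of which the Benjamini-Hochberg adjustment was made. Levels are TMM-scaled CPM, as mean ± SD. Counting intervals are exact binomial (Clopper-Pearson) and leave out every error but that of counting, because PCR copies of a fragment are counted too. Total depth did not separate the groups (exact permutation p = 0.914), and no pair of replicates agreed within sampling noise.

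Groups and replicate numbers came from the titles. Members, lists and tests were chosen with earlier results of these data known. The list of genes tied to EVI1 lacks 1 gene that is not reported here. Named genes were the members, the 2 largest increases and decreases past the threshold in each list, the 2 most abundant genes of each marker list, the nearest tested gene on each side of MECOM and GATA2, and the 3 nearest profiles of each of these. Alternatives were DESeq2 1.42.0, limma-voom (limma 3.58.1), 3 other scalings, 2 other filters, the replicate number as a block, a term for replicates 1 and 2 against 3 and 4, each of these pairs alone, and leaving out each library. Promoter windows came from RefSeq, matched by symbol, with 6 of 8 members found.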

Additional observations from a re-analysis of the deposited data

Results flagged for a closer look

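PRDM16 in PR-957 replicate 1 stood apart from the other 3 PR-957 libraries, at 0.111 CPM against 0. The value rests on 2 counts, which is fewer than the 3 counts that a count of 0 still allows, and it was 1 of 15 groups of 4 libraries examined in this way.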

How the results depend on the processing

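GATA2 stayed without a call and LMO2 kept its call in all 19 alternatives. MECOM was higher in all of them too, but it was chosen by its increase in these same libraries, so this is no support. With the replicate number as a block, 6913 genes were called in place of 6143. LMO2 and MYB kept their calls, while GATA2 and LYL1 remained without one. ERG was also under the threshold, but its p is no support for a change. Same-numbered libraries correlated at 0.151, 0.213, 0.0985 and 0.198 in their deviations from the group means. Each PR-957 library except replicate 3 correlated best with the DMSO library of its own number. PR-957 replicate 3 correlated best with DMSO replicate 4 (0.105). Correlations of replicates 3 and 4 of either group with the lower-numbered replicates of the other were all negative, from -0.187 to -0.0411. Whether the numbers pair the libraries was not tested, and the main fit has no term for them.

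Within replicates 3 and 4 alone, 1 of the 5 tested members other than MECOM was under the threshold in place of 3. The 3 include ERG, whose p is no support for a change. In this pair ERG was at 0.83, MYB at -0.090 and LYL1 turned to 0.14. In the same libraries 1 of the EVI1 and PRDM16 corepressors was called in place of 3, 8 genes near GATA2 in place of 14 and 1 gene near MECOM in place of 3. Within replicates 1 and 2 alone, MECOM was at 4.16, LYL1 was called at -0.29, 1 gene of the MYB family list was called in place of 2, and 1 gene near MECOM. With library totals alone, LYL1 turned to 0.027 and MYB was at -0.076 without a call. Leaving out 1 library left 1 to 3 of these 5 members under the threshold, with ERG among those counted. Log2 fold changes were 0.90 to 1.87 for ERG and -0.20 to -0.13 for MYB. For LYL1 they were -0.15 to 0.03 (0.00077 without PR-957 replicate 1 and 0.030 without PR-957 replicate 2). In these fits 1 to 2 genes of the MYB family list were called. ERG was not tested under the stricter filter, which asked for 1 CPM in 4 libraries. Apart from settings with fewer libraries, the cause of these shifts was not tested. Depth limited MECOM, ERG, TAL1 and PRDM16, which held 1 to 17 counts or none in each DMSO library.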
